A study of Mus musculus with 3 samples.

Results

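The genes described here are 10 transcripts that carry, receive or mark immune suppression: the cytokines Il10 and Tgfb1, the receptor chains Il10ra, Il10rb, Tgfbr1 and Tgfbr2, the inhibitory ligands Cd274 (PD-L1) and Pdcd1lg2 (PD-L2), and the regulatory T cell genes Foxp3 and Ctla4. They were taken by symbol from the 32285 genes of each deposited matrix, and all 10 were found. The question was which cells of the skin carry these transcripts without UVB, after UVB, and after UVB in mice that overexpress Cox-2.

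IL-10 is a cytokine that restrains macrophages and dendritic cells, and it signals through a receptor made of a ligand-binding chain and a shared chain. TGF-β is made in a latent form by many cells and signals through a pair of receptor kinases, and in skin it takes part in wound closure, in the residence of Langerhans cells and in the formation of regulatory T cells. PD-L1 and PD-L2 on myeloid cells engage PD-1 on T cells, while Foxp3 is the transcription factor of regulatory T cells and CTLA-4 is a surface receptor of those cells that competes for co-stimulatory ligands. UVB is long known to dampen immune responses in skin, and IL-10, regulatory T cells and prostaglandins have each been linked to that effect.

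Cells were from the dorsal skin of male C57Bl/6 mice, 8 weeks old and in telogen, after digestion and enrichment with beads against CD45, the surface marker of white blood cells. The library WT_Ctrl was wild-type skin without UVB, WT_UV was wild-type skin after 3 UVB exposures, and RP_UV was skin with the genotype RP after 3 UVB exposures, and the irradiated skin was taken at day 5 of the schedule. RP mice carry Rosa26-rtTA and Tre-Ptgs2, so that rat Ptgs2, which encodes Cox-2, is expressed in all tissues under doxycycline. Whether WT_UV mice received doxycycline is not given in the sources used here. Each group was 1 library, so no test was possible, no difference had a replicate check, and every interval below is a 95% interval for counting error alone. The sample identifiers place WT_Ctrl and RP_UV in one sequencing run and WT_UV in another, so for both ratios that involve WT_UV the run and the group cannot be told apart. RP_UV and WT_Ctrl share a run but differ in both UVB and genotype, and because the 3 comparisons share libraries their values are only set side by side.

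After filtering, the libraries held 5309, 5225 and 6070 cells (WT_Ctrl, WT_UV and RP_UV, the order used throughout), with medians of 4246, 10557 and 3774 UMIs per cell. A UMI (unique molecular identifier) marks 1 captured transcript. Levels are given in CPM, the UMIs of a gene per 1000000 UMIs of its class in that library. Ptgs2 reached 14.4, 117 and 486 CPM over all kept cells, and its row counts endogenous transcripts together with any transgene reads that aligned to the mouse gene. Cells were grouped into classes from marker genes, and every class name is to be read as resembling that type. Macrophages were the largest immune class with 1740, 1947 and 2165 cells, while alpha beta T cells counted 238, 297 and 19, type 2 conventional dendritic cells (cDC2) 640, 626 and 222, and neutrophils 12, 56 and 571. CD45 enrichment left 1127, 492 and 931 keratinocytes, and fibroblasts numbered 352, 5 and 396. Between 11% and 16.2% of the cells stayed unnamed, and each pair of libraries shared 8 to 11 cell barcodes. Because the UMIs of a gene can sit together in few cells, the intervals may be too narrow.

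Il10 (chr1:131019845-131024970, GRCm38.p6) was carried mainly by macrophages in every library. Macrophages held 83.9%, 79.2% and 78.6% of all Il10 UMIs, from totals of 62, 472 and 359. Their level was 7.85 CPM (5.86 to 10.3, 52 UMIs), 16.0 CPM (14.4 to 17.7, 374 UMIs) and 25.2 CPM (22.3 to 28.3, 282 UMIs). The 3 intervals did not overlap, and the order from untreated skin to irradiated RP skin was stepwise. As ratios, macrophage Il10 was 2.03-fold higher in WT_UV than in WT_Ctrl (1.52 to 2.78), 1.58-fold higher in RP_UV than in WT_UV (1.35 to 1.85) and 3.21-fold higher in RP_UV than in WT_Ctrl (2.38 to 4.40). The first of these log2 ratios, 1.02, was 0.90 when the libraries were clustered without integration and 0.60 in thinned cells, inside the 2-fold limit used for calls.

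The share of macrophages with at least 1 Il10 UMI was 2.64%, 10.2% and 7.76%, with WT_UV first, the library whose cells were read most deeply. The median depth of macrophages was 3748, 10935 and 4588 UMIs. After every macrophage was thinned to 2000 UMIs, with 271, 78 and 235 shallower cells left out, the shares were 1.84% (1.27 to 2.66), 2.35% (1.76 to 3.15) and 3.94% (3.16 to 4.90). At equal depth the interval of RP_UV lay above that of WT_Ctrl and only just failed to overlap that of WT_UV, at 3.16 against 3.15. The intervals of the wild-type libraries overlapped. Thinning is a random draw of UMIs, so so small a gap is not read as a difference. Fibroblasts, which should lack the cytokine, had no Il10 UMI in 352, 5 and 396 cells. Keratinocytes, given for comparison, had an Il10 UMI in 0 of 1127, 0 of 492 and 1 of 931 cells at median depths of 5864, 9056 and 5889 UMIs. Il10 was not spread evenly: the 10 macrophages with the most Il10 UMIs held 30.8%, 27.3% and 23.8% of the macrophage total.

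Within macrophages, both the clusters with Lyve1 among their 10 leading genes and the remaining clusters carried Il10. Those others included a cluster with 582 of 641 cells from RP_UV and a cluster with 386 of 410 cells from WT_UV. Both had Cd209f and Cd209g, markers of the same subset, among their leading genes, so the split rests on Lyve1 alone. Clusters led by Lyve1, a marker of tissue-resident perivascular macrophages, stood at 9.19, 16.0 and 20.3 CPM, and the other macrophages at 7.19, 16.0 and 27.4. In RP_UV over WT_Ctrl the ratio was 2.21 (1.33 to 3.83) in the Lyve1 clusters and 3.80 (2.61 to 5.70) in the others, and their intervals overlapped. By cluster, the highest macrophage levels were 47.5 CPM in a cluster led by Cxcl1, Ccl2 and Ccl7 (161 of 189 cells from RP_UV), 38.3 in a cluster led by Chil3 and Trem2 (424 of 440 cells from RP_UV) and 36.4 in a cluster led by Ccr1 and Nrg1 (314 of 321 cells from WT_UV). The macrophage clusters differed between libraries: the 3 largest held 40.4%, 31.3% and 14.1% of the class in WT_Ctrl. For WT_UV those shares were 23.3%, 19.8% and 16.1%, for RP_UV 27.2%, 26.9% and 19.6%, and no cluster was among the 3 largest of more than 1 library. A level over all macrophages thus compares different sets of clusters. These clusters come from a second split, made on the pooled cells of the 3 libraries without integration. The part of depth and run in that split, here and in the other classes, was not tested.

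Other carriers of Il10 were few. Monocytes, the blood-derived precursors of many macrophages, had 0, 16 and 8 UMIs, or 0, 5.47 and 13.5 CPM. The summed level of 10 macrophage markers in the monocyte class was 2135, 5531 and 9030 CPM with none at 0, and its part in the Il10 value was not tested. Of the monocytes, 66, 89 and 12 lay in a cluster led by Plac8 and Ly6c2, and 0, 150 and 91 in one led by Thbs1 and Vcan, so that monocyte levels compare different clusters. Type 2 dendritic cells had 0 and 3 UMIs in the wild-type libraries and 16 in RP_UV (12.2 CPM, 6.96 to 19.8), but those 16 UMIs lay in 5 cells. The largest cDC2 cluster of WT_Ctrl, led by Apod and Rbp4, held 213, 75 and 3 cells, and the largest of WT_UV and RP_UV, led by Pgf and Ffar2, held 4, 255 and 75, so that cDC2 levels likewise compare different clusters. The summed level of 10 macrophage markers in the cDC2 class was 1595, 2205 and 3252 CPM with none at 0, and its part in the Il10 value was not tested. Alpha beta T cells stood at 10.6 CPM in WT_Ctrl (3.89 to 23.1, 6 UMIs) and 13.4 in WT_UV (8.66 to 19.8, 25 UMIs), and 15 of the 25 UMIs were in 1 cell. No Il10 UMI was found in 571 neutrophils of RP_UV, which allows up to 0.525% of such cells with a UMI, taking 3 counts as the limit that a count of 0 allows. In level, macrophages and T cells of WT_Ctrl overlapped in their intervals, as did those of WT_UV.

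**Figure D1:**
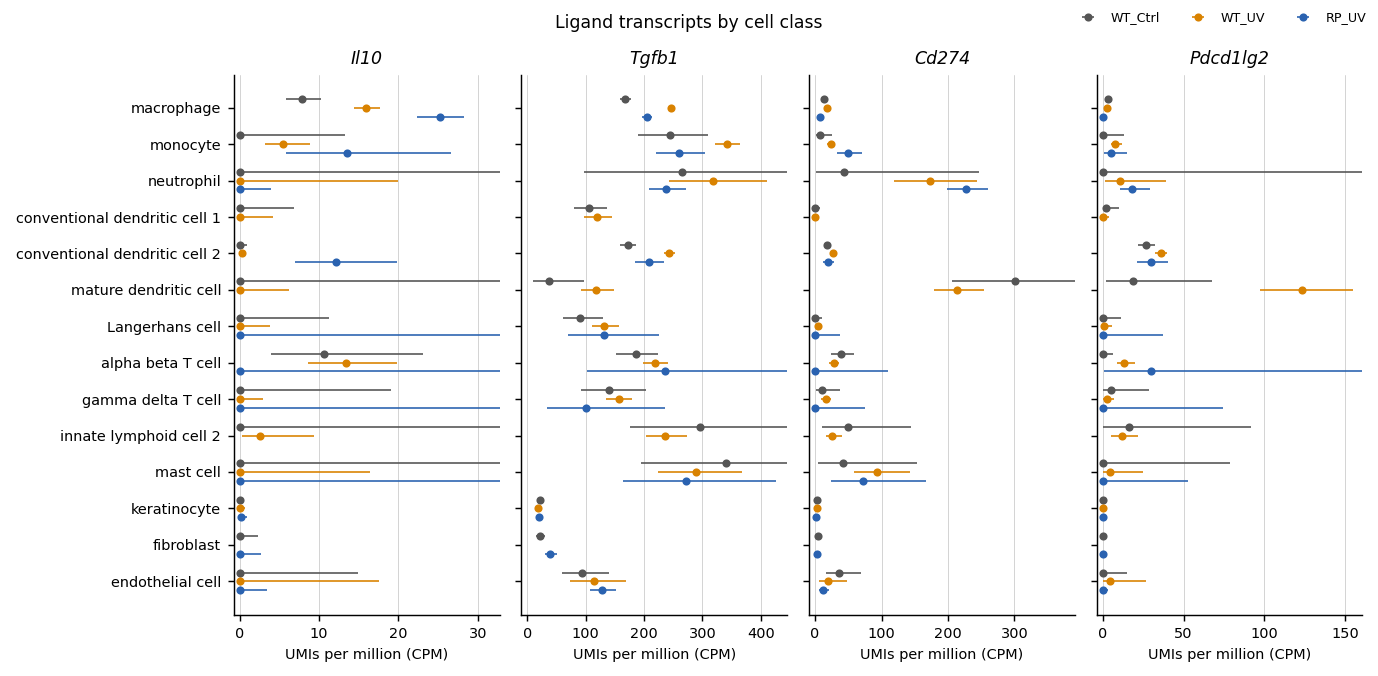
CPM (horizontal axis, a separate linear scale per gene) of Il10, Tgfb1, Cd274 and Pdcd1lg2 in 14 cell classes, with 1 point per library of at least 10 cells and lines for the exact Poisson 95% interval, cut at the edge of some panels. Il10 sits in macrophages with RP_UV at 25.2 CPM, Cd274 is highest in mature dendritic cells and neutrophils, and Pdcd1lg2 in mature dendritic cells and cDC2.

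Tgfb1 (chr7:25687002-25705077) was measured in all the larger white blood cell classes and was low in keratinocytes. Among macrophages a Tgfb1 UMI was found in 750 of 1740, 1621 of 1947 and 1228 of 2165 cells. Macrophages held 39.1%, 41.1% and 58.5% of its UMIs, and cDC2 held 23.6%, 19.3% and 6.99%. Macrophage levels were 168 CPM (158 to 178), 247 (240 to 253) and 205 (196 to 213), with WT_UV highest and no overlap of the 3 intervals. The ratios were 1.47 (1.38 to 1.57) for WT_UV over WT_Ctrl, 0.830 (0.791 to 0.872) for RP_UV over WT_UV and 1.22 (1.14 to 1.31) for RP_UV over WT_Ctrl, all inside the 2-fold limit used for calls. In CPM the same order was seen in monocytes, at 244, 343 and 260, and in cDC2, at 172, 243 and 209. In both classes, however, the interval of RP_UV overlapped that of WT_Ctrl. Mast cells, the tissue cells that store histamine, stood at 341, 289 and 273 CPM and neutrophils at 265, 318 and 238, with overlapping intervals. Keratinocytes stood at 20.9, 18.4 and 20 CPM, with overlapping intervals and a ratio of 0.877 (0.677 to 1.13) for WT_UV over WT_Ctrl. Fibroblasts stood at 21.0 and 39.4 CPM in WT_Ctrl and RP_UV, a ratio of 1.88 (1.20 to 2.99), while the 5 fibroblasts of WT_UV gave only 2 UMIs. None of 4 of the genes was called in fibroblasts, beside 10.1% of all genes. Over all kept cells Tgfb1 was 110, 218 and 135 CPM, a ratio of 1.98 (1.90 to 2.06) for WT_UV over WT_Ctrl that also moves with the mix of cells, since fewer cells of a type and less RNA per cell cannot be told apart in such a sum.

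**Figure D2:**
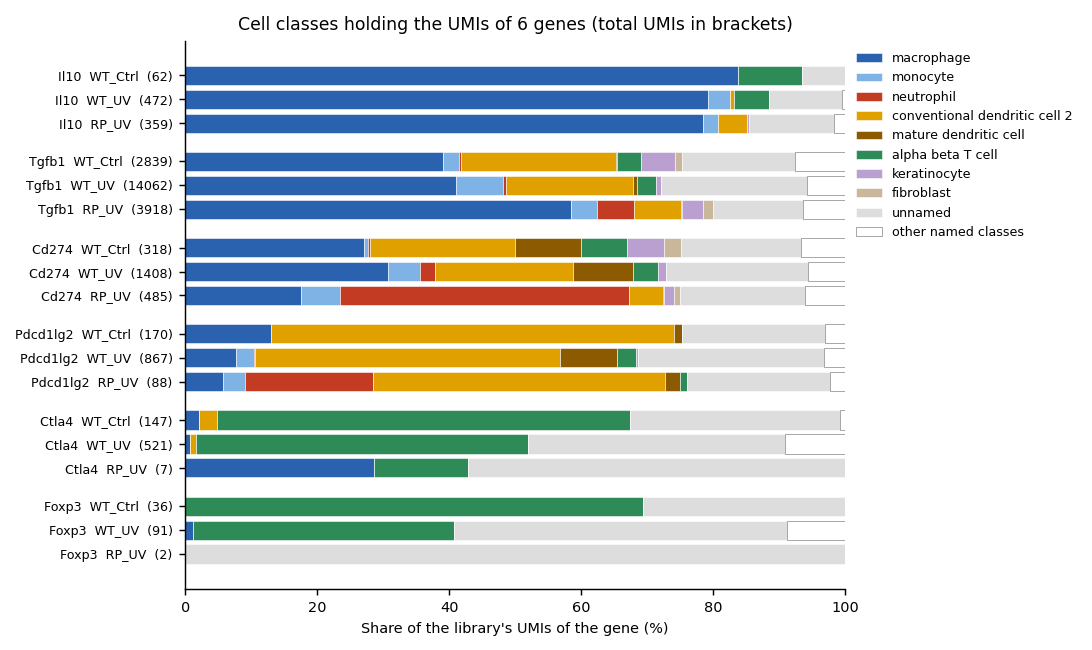
Share of each library's UMIs of a gene (horizontal axis, percent) held by each cell class, with the total UMIs of the gene in brackets. Macrophages hold most Il10 in every library, neutrophils hold 43.7% of Cd274 in RP_UV against 2.27% in WT_UV, and the Ctla4 and Foxp3 bars of RP_UV rest on 7 and 2 UMIs.

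The receptors of IL-10 went separate ways in macrophages. Il10ra (chr9:45253837-45269149), the chain that binds the cytokine, was 89.1 CPM (82.0 to 96.5), 70.5 CPM (67.1 to 74.0) and 48.0 CPM (44.0 to 52.2). The 3 intervals did not overlap, and the order was the reverse of that of Il10. The ratios were 0.791 (0.720 to 0.871), 0.681 (0.616 to 0.751) and 0.539 (0.478 to 0.606) for WT_UV over WT_Ctrl, RP_UV over WT_UV and RP_UV over WT_Ctrl. Il10rb (chr16:91406157-91425834), the chain shared with other cytokine receptors, was 146, 151 and 158 CPM, with ratios of 1.04 (0.965 to 1.11), 1.04 (0.985 to 1.10) and 1.08 (0.999 to 1.17). Both the Lyve1 clusters and the other macrophages showed the lower Il10ra, at 0.571 (0.462 to 0.705) and 0.524 (0.453 to 0.605) for RP_UV over WT_Ctrl.

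Il10ra was also lower in cDC2 and monocytes of RP_UV. In cDC2 it was 82.9, 68.2 and 50.2 CPM, with a ratio of 0.606 (0.458 to 0.792) for RP_UV over WT_Ctrl. In monocytes it was 108, 96.8 and 38.9 CPM, and RP_UV over WT_UV was 0.402 (0.25 to 0.615). This monocyte difference did not hold when the libraries were clustered without integration, where the log2 ratio was 0.18 in place of -1.32, and with classes from each cell's own markers it was -0.91. Neutrophils had 140 CPM in WT_UV and 118 in RP_UV, a ratio of 0.841 (0.545 to 1.34) whose interval includes 1. Keratinocytes had under 10 UMIs of Il10ra in every library, whereas Il10rb was measured there at 3.37, 6.51 and 3.76 CPM.

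Langerhans cells, the dendritic cells of the epidermis, had more of 3 receptor transcripts in WT_UV than in WT_Ctrl. Il10ra was 12.1 CPM in WT_Ctrl (4 UMIs) and 40.8 in WT_UV (40 UMIs), a ratio of 3.37 (1.22 to 13). Il10rb had 1 and 26 UMIs, a ratio of 8.75 (1.44 to 359), and Tgfbr1 was 33.4 and 70.5 CPM, a ratio of 2.11 (1.11 to 4.43). With classes from each cell's own markers the log2 ratio of Tgfbr1 was 0.96 in place of 1.08 and that of Il10ra 1.0 in place of 1.75, and in thinned cells that of Tgfbr1 was 0.56. The 3 were the calls among 5 of the genes with enough UMIs in this class, where 8.52% of 6221 genes were at least 2-fold apart in either direction with an interval outside 1. Il10ra and Il10rb passed the UMI limit through WT_UV, the deeper library, and the count is not read against that background. The class held 69 cells in each wild-type library and 24 in RP_UV, with medians of 4839 and 13276 UMIs per cell in the wild-type libraries. The cluster that held 51 of the WT_UV cells held 6 of the WT_Ctrl cells, whereas the others, led by Cd207 and H2-M5, held 33 and 30 of WT_Ctrl and 10 and 8 of WT_UV. In type 1 conventional dendritic cells (66 and 35 cells) Il10ra was lower, at 24 and 9.11 CPM, a ratio of 0.380 (0.136 to 0.988) and the only call among 3 such genes beside 7.1% of all genes. Its log2 ratio of -1.40 turned to 0.13 with classes from each cell's own markers and to 2.50 in thinned cells.

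Of the TGF-β receptors, Tgfbr2 (chr9:116087695-116175363), the kinase that binds the ligand first, was level in macrophages. It stood at 289 CPM (277 to 303), 288 (282 to 295) and 289 (279 to 299), and the ratios were 0.997 (0.947 to 1.05), 1.0 (0.961 to 1.05) and 0.999 (0.944 to 1.06). Macrophages held 59.5%, 76.1% and 66.3% of all Tgfbr2 UMIs. The Lyve1 clusters stood above the other macrophages in each library, at 339, 369 and 371 CPM against 265, 264 and 253. Monocytes were far lower, at 32.4, 44.1 and 55.8 CPM. Gamma delta T cells stood at 237, 205 and 283 CPM with overlapping intervals. Outside the white blood cells, fibroblasts had 287 CPM in WT_Ctrl and 418 in RP_UV, a ratio of 1.46 (1.29 to 1.65), and endothelial cells, which line vessels, had 259, 109 and 146. The endothelial ratio of WT_UV over WT_Ctrl was 0.422 (0.25 to 0.689), the only call among 3 of the genes measured there beside 15.4% of all genes, from 84 and 26 cells. Its log2 ratio of -1.25 was -0.95 in thinned cells, -0.85 under 4000 genes in every library and -0.76 as a mean of the cells' CPM. The largest endothelial cluster of WT_Ctrl held 30 and 4 cells and that of WT_UV 8 and 14.

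Tgfbr1 (chr4:47353222-47414926), the kinase that passes the signal on, was highest in WT_UV in macrophages. Macrophages had 17.5 CPM (14.5 to 21.0), 24.6 CPM (22.6 to 26.7) and 14.2 CPM (12.1 to 16.6). WT_UV stood apart from both other libraries, which overlapped, with ratios of 1.40 (1.15 to 1.73) over WT_Ctrl and 0.578 (0.482 to 0.690) for RP_UV over WT_UV. Mast cells had 128, 191 and 57.4 CPM from 6, 43 and 4 UMIs, and RP_UV over WT_UV was 0.300 (0.0782 to 0.825), the only call among 4 of the genes there beside 11.4% of all genes. The mast cells of RP_UV also carried neutrophil markers at a summed 6918 CPM (1 of 8 at 0) against 63.9 and 231 in the wild-type libraries (5 and 2 of 8 at 0), and the part of this in the Tgfbr1 value was not tested. Keratinocytes stood at 8.64, 8.85 and 7.20 CPM with overlapping intervals.

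**Figure D3:**
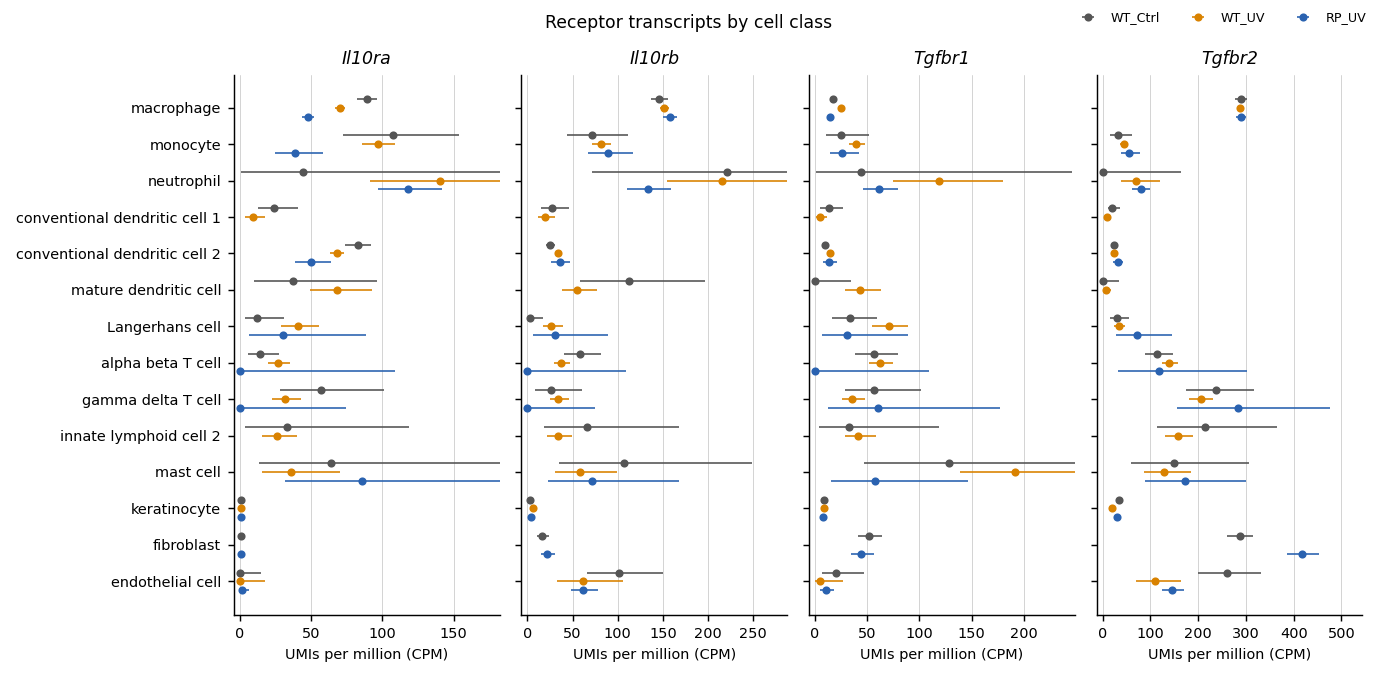
CPM (horizontal axis, a separate linear scale per gene) of Il10ra, Il10rb, Tgfbr1 and Tgfbr2 in the same 14 classes, with 1 point per library and lines for the exact Poisson 95% interval, cut at the edge of some panels. In macrophages Il10ra steps down from 89.1 to 48.0 CPM while Tgfbr2 lies between 288 and 289.

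The ligands of PD-1 differed from each other in their carriers. Their genes are neighbours on chromosome 19 and lie on the same strand, Cd274 at chr19:29362107-29388095 and Pdcd1lg2 at chr19:29410919-29472927. The 250 bases before the start that RefSeq gives each gene (build GRCm38.p6) are shown because these neighbours differed in their carriers. The Cd274 window, chr19:29367188-29367437 on the plus strand, lies within the span of the gene record, which begins further upstream, and the Pdcd1lg2 window is chr19:29410669-29410918 on the plus strand. Capitals mark a match to the NF-kB motif, read here as GGG and CC with any 5 bases between them.
Cd274: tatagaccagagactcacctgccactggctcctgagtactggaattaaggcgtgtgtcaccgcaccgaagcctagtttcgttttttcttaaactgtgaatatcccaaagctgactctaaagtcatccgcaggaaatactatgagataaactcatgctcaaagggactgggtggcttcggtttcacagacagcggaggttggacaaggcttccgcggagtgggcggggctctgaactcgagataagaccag
Pdcd1lg2: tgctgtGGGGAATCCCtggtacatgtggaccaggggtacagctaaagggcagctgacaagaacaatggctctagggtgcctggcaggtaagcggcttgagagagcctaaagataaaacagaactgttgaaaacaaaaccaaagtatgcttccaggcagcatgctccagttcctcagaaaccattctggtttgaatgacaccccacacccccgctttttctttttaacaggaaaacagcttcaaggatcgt
Both strands were searched for the NF-kB motif, the STAT motif TTCNNNGAA, the AP-1 motif TGANTCA, the interferon response core (GAAA, any 2 bases, GAAA) and the CRE core TGACG. The Pdcd1lg2 window held 1 match, GGGGAATCCC from 244 to 235 bases before the start, and the Cd274 window held none. Among 32851 promoter windows of this length, 45.8% held the NF-kB motif, 7.02% the STAT motif, 6.75% the AP-1 motif, 2.98% the interferon response core and 17.8% the CRE core. Of the 10 genes 7 had a window, and the only other matches were 7 to the NF-kB motif before Tgfb1, of which 3 overlapped, and 1 to the STAT motif before Foxp3 (TTCCAAGAA). A match is a run of letters and was not tested as a binding site.

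Cd274 was highest in CPM in mature dendritic cells and neutrophils, and the class that held most of its UMIs was not the same in every library. Mature dendritic cells, the migratory form marked by Ccr7 and Fscn1, stood at 301 CPM in WT_Ctrl (206 to 424, 15 cells) and 214 in WT_UV (178 to 254, 34 cells), and RP_UV had 3 such cells with 1 UMI. In WT_Ctrl 15 of the 32 Cd274 UMIs of this class lay in 1 cell. Neutrophils stood at 44.2 CPM in WT_Ctrl (1 UMI in 12 cells), 173 in WT_UV (118 to 244, 32 UMIs) and 227 in RP_UV (198 to 260, 212 UMIs). The level in neutrophils of RP_UV over WT_UV was 1.32 (0.905 to 1.98), an interval that includes 1, and none of 6 of the genes was called in neutrophils, beside 10.4% of all genes. Their share of the library's Cd274 UMIs was 0.314%, 2.27% and 43.7%, while neutrophils were 0.226%, 1.07% and 9.41% of the cells. Without the neutrophils, Cd274 over all other kept cells was 12.3, 21.4 and 9.68 CPM, so that RP_UV had the lowest level, against 12.3, 21.8 and 16.7 with them.

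Neutrophils are small in RNA, with medians of 1370, 3268 and 1314 UMIs. A Cd274 UMI was found in 1 of 12, 12 of 56 (21.4%) and 131 of 571 (22.9%) of them. After thinning, which left out 461 of the 571 cells in RP_UV, the share was 17.0% in WT_UV and 41.8% in RP_UV (33.0 to 51.2). Keratinocytes, a class with little of this transcript, had 1.42%, 2.24% and 0.752% of cells with a UMI, or 0.506%, 0 and 0.275% after thinning. The 10 neutrophils with the most UMIs held 17.0% of the neutrophil total in RP_UV, so the signal was spread over many cells.

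In macrophages Cd274 was 13 CPM (10.4 to 16.0), 18.5 CPM (16.8 to 20.3) and 7.59 CPM (6.06 to 9.39). RP_UV was the lowest and its interval overlapped neither other library. The ratios were 1.42 (1.13 to 1.82) for WT_UV over WT_Ctrl, 0.411 (0.321 to 0.519) for RP_UV over WT_UV, and 0.585 (0.428 to 0.799) for RP_UV over WT_Ctrl. The Lyve1 clusters and the other macrophages gave 0.445 (0.233 to 0.801) and 0.428 (0.327 to 0.553) for RP_UV over WT_UV. Thinned to equal depth, 2.72%, 3.37% and 1.35% of macrophages had a Cd274 UMI. A macrophage cluster led by the interferon-inducible genes Iigp1, Gbp2b, Gbp2 and Cxcl9 reached 124 CPM, and 56 of its 64 cells came from WT_Ctrl.

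Monocytes showed another order, with 7.19 CPM in WT_Ctrl (2 UMIs), 23.3 in WT_UV (68 UMIs) and 49.0 in RP_UV (29 UMIs). RP_UV over WT_UV was 2.11 (1.32 to 3.30), and over WT_Ctrl 6.81 (1.72 to 58.9). The 29 UMIs of RP_UV lay in 16 cells. The monocytes of RP_UV also held neutrophil markers at a summed 1729 CPM with none of 8 at 0, against 75.5 and 70.8 in the wild-type libraries with 5 and 3 at 0, and the part of this in the Cd274 value was not tested. Thinning lowered the log2 ratio over WT_Ctrl from 2.77 to 0.70. The log2 ratio over WT_UV, 1.08, was 4.03 without integration, 0.62 with classes from each cell's own markers and 0.78 in thinned cells. Among monocytes none of 7 of the genes was called in WT_UV over WT_Ctrl (8.97% of all genes), 2 of 8 of the genes were called in RP_UV over WT_UV (background 10.1%), and 2 of 6 in RP_UV over WT_Ctrl (18.2%), in each case Cd274 upward and Il10ra downward.

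In cDC2 Cd274 stood at 18.0, 26.4 and 19.0 CPM, with RP_UV over WT_UV at 0.721 (0.459 to 1.09). Alpha beta T cells had 38.9 and 27.8 CPM in the wild-type libraries, a ratio of 0.716 (0.428 to 1.24). Keratinocytes stood at 2.64, 3.00 and 1.10 CPM, from 18, 18 and 7 UMIs, and RP_UV over WT_UV was 0.365 (0.129 to 0.915), the only call among 5 of the genes in keratinocytes beside 10.2% of all genes there. Its log2 ratio of -1.45 lay inside the 2-fold limit in 5 of 7 alternatives, at -0.38 to -0.88, and the largest keratinocyte clusters differed between the libraries. In the other keratinocyte comparisons, WT_UV over WT_Ctrl and RP_UV over WT_Ctrl, none of 5 was called, beside 7.03% and 18% of all genes. Endothelial cells had 36.5, 19.0 and 12.1 CPM from 9, 4 and 13 UMIs, and RP_UV over WT_Ctrl was 0.333 (0.132 to 0.882), the only call among 4 of the genes beside 9.67%, with a log2 ratio of -0.72 without integration in place of -1.59. Each of these values rests on few UMIs.

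Of all classes, type 2 dendritic cells held the most Pdcd1lg2 UMIs in every library, but other classes carried it too. Unnamed clusters held 37 of its UMIs in WT_Ctrl and 244 in WT_UV. Type 2 dendritic cells held 61.2%, 46.3% and 44.3% of its UMIs, at 26.8 CPM (21.9 to 32.4), 35.9 CPM (32.5 to 39.6) and 29.7 CPM (21.1 to 40.6). The intervals of the wild-type libraries just failed to overlap, with a ratio of 1.34 (1.08 to 1.68), and RP_UV overlapped both. Mature dendritic cells stood at 18.8 CPM in WT_Ctrl (2 UMIs) and 124 in WT_UV (97.0 to 155, 74 UMIs), and the 13 basophils of WT_UV at 163 (84.1 to 284, 12 UMIs). Neutrophils of RP_UV held 19.3% of that library's Pdcd1lg2 UMIs, at 18.2 CPM (10.6 to 29.2, 17 UMIs). None of 7 of the genes was called in cDC2 in any comparison, beside 7.6%, 7.51% and 13.6% of all genes there.

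Macrophages carried little Pdcd1lg2, and RP_UV the least. The values were 3.32 CPM (2.08 to 5.03, 22 UMIs), 2.86 (2.22 to 3.63, 67 UMIs) and 0.447 (0.145 to 1.04, 5 UMIs). The intervals of the wild-type libraries overlapped and RP_UV stood below both, at 0.156 (0.0491 to 0.383) over WT_UV and 0.134 (0.0398 to 0.364) over WT_Ctrl. The summed level of 7 cDC2 markers in macrophages was 2701, 1406 and 675 CPM, with 0, 0 and 1 of 7 at 0, and its part in the Pdcd1lg2 value was not tested. Over all kept cells Pdcd1lg2 was 6.59, 13.4 and 3.02 CPM, and RP_UV over WT_UV was 0.225 (0.179 to 0.280). That sum moves with the 640, 626 and 222 cDC2 cells, whose own level in RP_UV over WT_UV was 0.827 (0.580 to 1.15).

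Alpha beta T cells had 0 Pdcd1lg2 UMIs in WT_Ctrl and 25 in WT_UV, in 20 cells. Against a floor of 3 UMIs in WT_Ctrl, the level in WT_UV was at least 2.53-fold higher. The gene passed the UMI limit in this class only through WT_UV. With classes taken from each cell's own markers, or with thinned cells, the log2 ratio was 0.66 or 0.51. An unnamed cluster of 27 cells with both T cell genes (Trac, Cd28, Icos) and the dendritic gene Pgf among its leaders held a further 43 UMIs, 41 of them in WT_UV.

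**Figure D4:**
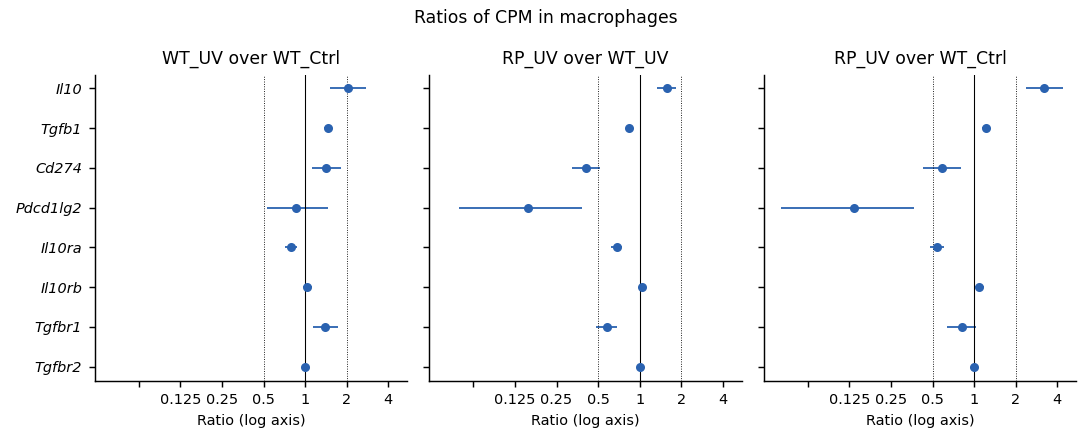
Ratios of CPM in macrophages (horizontal log axis) for the 8 genes with at least 20 UMIs in each pair of libraries, in 3 comparisons that share libraries, with lines for the exact 95% interval and dotted lines at 0.5 and 2. Il10 lies right of 1 in each panel, Cd274 and Pdcd1lg2 lie left of 0.5 for RP_UV over WT_UV, and Tgfbr2 and Il10rb lie at 1.

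Counted over macrophages with a limit of 2-fold and an interval outside 1, 8 of the 10 genes had the 20 UMIs needed in each comparison, and Foxp3 and Ctla4 did not. The 10 genes were chosen with earlier results of these data known, so no count here is read against the share of all genes beside it. In WT_UV over WT_Ctrl 1 of 8 was called (Il10, higher), where 7.39% of 12225 genes were called in either direction. In RP_UV over WT_UV 2 of 8 were called (Cd274 and Pdcd1lg2, lower) beside 9.79% of 12447 genes, and in RP_UV over WT_Ctrl 2 of 8 (Il10 higher, Pdcd1lg2 lower) beside 13.3% of 11465. The median ratios of the 8 genes were 1.22, 0.755 and 0.905, and those of all genes 1.03, 0.953 and 1.0. Over all kept cells 2, 3 and 4 of 10 genes were called beside 20.2%, 25% and 15.6% of all genes. There Il10 and Pdcd1lg2 were higher in WT_UV than in WT_Ctrl (3.04 and 2.04), Pdcd1lg2, Foxp3 and Ctla4 were lower in RP_UV than in WT_UV, and in RP_UV over WT_Ctrl Il10 was higher (5.13) while Pdcd1lg2 (0.458), Foxp3 and Ctla4 were lower.

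Foxp3 (chrX:7579676-7595243) was seen in few cells. Alpha beta T cells had 44.2 CPM in WT_Ctrl (28.6 to 65.2, 25 UMIs), 19.3 in WT_UV (13.5 to 26.7, 36 UMIs) and 0 UMIs in the 19 cells of RP_UV. WT_UV over WT_Ctrl was 0.436 (0.255 to 0.759) in CPM, and 2 of the 10 genes, Foxp3 downward and Pdcd1lg2 upward, were called in T cells, where 3.45% of all genes were called. Pdcd1lg2 passed the UMI limit only through WT_UV, so the count is not read against that share. Clustered without integration, the log2 ratio of Foxp3 turned from -1.20 to 0.21, and it was -0.80 with classes from each cell's own markers and -0.91 in thinned cells. The share of T cells with a Foxp3 UMI was 16 of 238 (6.72%, 4.18 to 10.6) and 18 of 297 (6.06%, 3.87 to 9.38), and 0 of 19 in RP_UV allows up to 15.8% by the limit of 3 counts. Thinned to 2000 UMIs the shares were 5.19% (2.66 to 9.92) and 2.77% (1.41 to 5.37), with overlapping intervals. Among macrophages 0, 1 and 0 cells had a Foxp3 UMI. Median depths of the T cells were 2279, 5611 and 1692 UMIs.

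The T cell class did not hold all Foxp3. It accounted for 69.4% of the 36 UMIs in WT_Ctrl and 39.6% of the 91 UMIs in WT_UV, while unnamed clusters held 30.6% and 50.5%. Of the 46 UMIs in unnamed clusters of WT_UV, 15 were in a cluster led by Gzmc and histone genes of dividing cells and 12 in one led by Trac and Icos. Over all kept cells Foxp3 was 1.40 CPM (0.977 to 1.93), 1.41 (1.13 to 1.73) and 0.0687 (0.00832 to 0.248, 2 UMIs). The wild-type libraries were alike, with a ratio of 1.01 (0.680 to 1.53), and RP_UV over WT_UV was 0.0487 (0.00581 to 0.181). The lower value in RP_UV goes along with 0.313% of its cells being alpha beta T cells, against 4.48% and 5.68%. Whether fewer T cells or less Foxp3 per T cell lay behind it cannot be told apart with 19 cells.

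Ctla4 (chr1:60909025-60915832) was carried in the wild-type libraries mainly by alpha beta T cells and by unnamed clusters. Unnamed clusters held 47 of its UMIs in WT_Ctrl and 203 in WT_UV. Of the Ctla4 UMIs in alpha beta T cells, 10 cells held 70.7% in WT_Ctrl and 73.8% in WT_UV. Alpha beta T cells had 162 CPM in WT_Ctrl (131 to 199, 92 UMIs), 141 in WT_UV (124 to 159, 263 UMIs) and 29.6 in RP_UV (1 UMI). The wild-type ratio was 0.867 (0.681 to 1.11), an interval that includes 1. The class that resembled type 2 innate lymphoid cells, which make type 2 cytokines, had 16.4 CPM in WT_Ctrl (1 UMI) and 46.6 in WT_UV (36 UMIs in 9 of 106 cells). Its clusters scored 3.92 and 3.72 on their own marker panel and 3.08 and 2.87 on that of alpha beta T cells, on a log2 scale. The part of T cells in its Ctla4 value was not tested. Macrophages stood at 0.453 CPM or less in each library. Over all kept cells Ctla4 was 5.70, 8.07 and 0.240 CPM, and RP_UV over WT_UV was 0.0298 (0.0119 to 0.0618) from 7 and 521 UMIs.

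Most T cells with a Foxp3 UMI also had a Ctla4 UMI. Of the T cells with a Foxp3 UMI, 13 of 16 in WT_Ctrl (81.2%, 57 to 93.4) and 15 of 18 in WT_UV (83.3%, 60.8 to 94.2) had a Ctla4 UMI. Without a Foxp3 UMI the shares were 13 of 222 (5.86%, 3.45 to 9.76) and 23 of 279 (8.24%, 5.56 to 12.1), so that 13 of the 26 T cells with a Ctla4 UMI in WT_Ctrl and 23 of the 38 in WT_UV had no Foxp3 UMI. The intervals were far apart, and the depth of the cells with and without Foxp3 was close, at medians of 2295 and 2279 UMIs in WT_Ctrl and 6052 and 5564 in WT_UV. Il10 followed the same split, in 2 of 16 against 0 of 222 cells and in 4 of 18 against 1 of 279. Ikzf2, which encodes the regulatory T cell factor Helios, was seen in 81.2% against 12.6% and in 88.9% against 21.9%, and Tnfrsf4, which encodes OX40, in 62.5% against 2.70% and 77.8% against 8.24%. Tnfrsf18 was seen in 81.2% against 23.4% in WT_Ctrl and in 72.2% (49.1 to 87.5) against 47.3% (41.5 to 53.2) in WT_UV, where the intervals overlap. Tgfb1 was seen in 56.2% against 33.3% in WT_Ctrl and in 77.8% against 62.7% in WT_UV, with overlapping intervals. Tgfbr2 was not more frequent with Foxp3, at 18.8% against 19.4% and 38.9% against 53.0%.

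**Figure D5:**
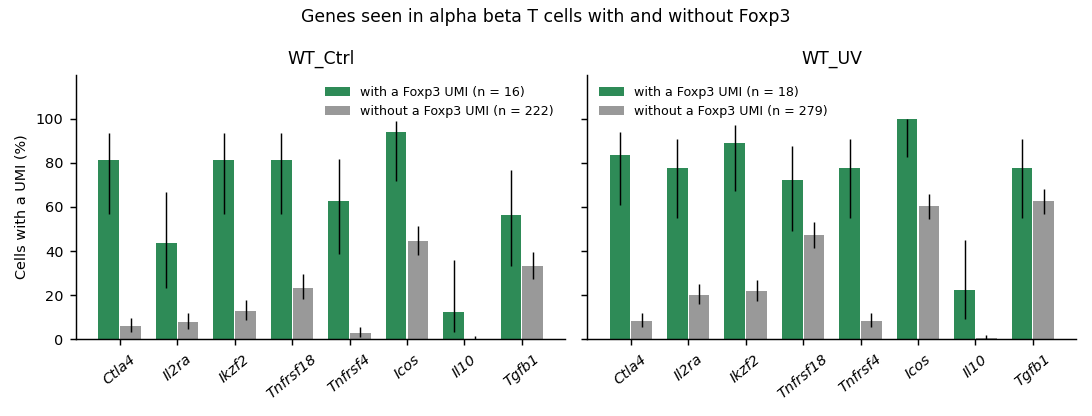
Share of alpha beta T cells with at least 1 UMI of each gene (vertical axis, percent), for cells with and without a Foxp3 UMI in WT_Ctrl (16 and 222 cells) and WT_UV (18 and 279 cells), with Wilson 95% intervals. Ctla4, Ikzf2 and Tnfrsf4 differ with intervals that do not overlap in both libraries, those of Tnfrsf18 overlap in WT_UV, and those of Tgfb1 overlap.

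A cluster of 26 T cells, 10 from WT_Ctrl and 16 from WT_UV, held much of this signal. Its leading genes were Ctla4, Il2ra, Tnfrsf4 and Ikzf2, with Foxp3 among the first 10, so its levels of Ctla4 and Foxp3 are a description and no finding. Ctla4 stood at 1369 and 1261 CPM, Foxp3 at 342 (7 UMIs) and 203 (23 UMIs), and Il10 at 196 (4 UMIs in 1 cell) and 88.2 (10 UMIs in 4 cells). Pooled over libraries this was the highest Il10 level among clusters of at least 20 cells, but it rested on 14 Il10 UMIs.

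The 69 other genes of these pathways were chosen by role, with earlier results of these data known. Their counts, here and below, are therefore not read against the shares of all genes set beside them. In WT_UV over WT_Ctrl macrophages had 44 of them with enough UMIs. Of these, 10 were called higher and 2 lower, beside 4.9% and 2.49% of all genes. The highest ratios were those of Thbs1, an activator of latent TGF-β (1 and 1290 UMIs, ratio 365, 65.4 to 14427), the growth factor gene Areg (6.79, 1.78 to 57.7, 2 UMIs in WT_Ctrl), the TGF-β feedback inhibitor Smad7 (4.15, 2.67 to 6.80) and Vegfa, which encodes a vessel growth factor (3.77, 1.20 to 19.1, 3 UMIs in WT_Ctrl). Ltbp3, a binding protein of latent TGF-β, was lower (0.341, 0.203 to 0.579), as was Il1rl1, the IL-33 receptor (0.462, 0.377 to 0.569). By group, 5 of 13 genes of the TGF-β axis were higher and 1 lower, while none of 7 genes of the IL-10 axis was called.

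In RP_UV over WT_UV 45 of those genes had enough UMIs, with 2 higher and 5 lower, beside 3.49% and 6.3% of all genes. The TGF-β co-receptor Tgfbr3 was higher (2.35, 1.42 to 3.91), as was Bcl3, an IL-10 response gene (2.02, 1.76 to 2.32). The 5 lower genes were led by Cd276, a member of the B7 family (0.156, 0.0815 to 0.274), Il1rl1 (0.284, 0.193 to 0.408), the inhibitory receptor Lag3 (0.358, 0.123 to 0.861) and Icosl, the ligand of ICOS (0.469, 0.348 to 0.624). Co-stimulation and checkpoint genes made up 4 of the 5, out of 12 measured. In RP_UV over WT_Ctrl 6 of 42 were higher and 5 lower, beside 6.78% and 6.48% of all genes. The genes named by rule were Thbs1 at 282, Areg at 9.17, the STAT3 feedback inhibitor Socs3 at 2.77 (2.42 to 3.18) and Anxa1, an inhibitor of inflammation, at 2.74 (2.51 to 3.00) on one side, and Il1rl1 at 0.131, Ikzf2 at 0.373, Cd276 at 0.385 and Ltbp3 at 0.408 on the other. Socs3 stood at 39.6, 75.7 and 110 CPM in macrophages, in the same order of libraries as Il10. The median ratios of the listed genes were 1.10, 0.887 and 1.10, beside 1.03, 0.953 and 1.0 for all genes.

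Type 2 dendritic cells had 42, 41 and 37 of those genes measured, with 5 higher and 4 lower in WT_UV over WT_Ctrl (4.4% and 3.19% of all genes), 2 higher and 1 lower in RP_UV over WT_UV (3.12% and 4.39%), and 6 higher and 6 lower in RP_UV over WT_Ctrl (5.96% and 7.66%). In WT_UV over WT_Ctrl the highest were Thbs1 (19.9, 9.58 to 49.9), Cd276 (10.6, 2.81 to 89.6, 2 UMIs in WT_Ctrl), the CD28 ligand gene Cd80 (3.19, 2.39 to 4.35) and Areg (2.76, 1.69 to 4.80), and the lowest was Lag3 (0.232, 0.170 to 0.314). Areg stood at 4.63, 12.8 and 97.5 CPM, and RP_UV over WT_UV was 7.61 (5.95 to 9.73). Lag3 had 0 UMIs in the cDC2 of RP_UV against 74 in WT_UV, which put it at least 2.90-fold lower. The summed level of 9 alpha beta T cell markers in the cDC2 class was 139, 51.2 and 26.6 CPM, with 0, 0 and 2 at 0. Its part in the Lag3 values was not tested. In alpha beta T cells 41 were measured, with 4 higher and 0 lower in WT_UV over WT_Ctrl, beside 2.38% and 1.07% of all genes. These were the activation receptor gene Tnfrsf9 (18.8, 5.09 to 157, 2 UMIs in WT_Ctrl), Furin, the protease that cuts pro-TGF-β (2.71, 2.14 to 3.45), Pdcd1, the PD-1 gene (23 UMIs against 0, at least 2.32-fold higher), and Skil, a repressor of SMAD signalling (2.02, 1.37 to 3.07).

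By pattern over 41 pools of a class and a library, the gene most like Il10 was Tlr1 (Pearson r = 0.80, over 13904 genes), a receptor of bacterial lipopeptides, followed by Tfec and Trim30c (0.76 each). For Tgfb1 the closest were Dock11 (0.89), Iqgap1 (0.88) and Ppp1r18 (0.87), and for Tgfbr2 Nr3c1, the glucocorticoid receptor gene (0.84), Ski (0.82) and Rasa1 (0.79). For Cd274 they were Stx11 (0.77), Slc2a6 and Samsn1 (0.76 each), and for Pdcd1lg2 Ccl17 (0.80), Ccr7 (0.80) and Plppr4 (0.78). Il10ra was closest to Snx20, Cd53 and Arhgap30 (0.87, 0.87 and 0.86), Il10rb to Parp14, Neu1 and Tspan14 (0.84, 0.84 and 0.77), and Tgfbr1 to Ago2, Nufip2 and Sbno1 (0.83, 0.82 and 0.79). Foxp3 was closest to Gm2682, Cd8b1 and Ncr1 (0.93, 0.91 and 0.91) and Ctla4 to Gm14718, Tbx21 and Ifng (0.96, 0.95 and 0.94), values that rest on few pools of T cells. Ccl17, Ccr7, Cd8b1 and Ncr1 were also panel markers used to name the classes, so their likeness is in part built in. The pools share 3 libraries, their depth and their free RNA, so these are descriptions with no test.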

How the data were processed

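Skin cells enriched for CD45 were profiled by 10x Genomics 3′ single-cell RNA-seq, with 1 library for each of the 3 groups. The authors deposited filtered matrices of raw UMI counts per gene and cell, which the file headers credit to Cell Ranger 6.1.1 and the processing notes to the mouse build mm10. Cells with over 200 genes, under 4000 genes (6000 in WT_UV) and under 10% mitochondrial UMIs were kept, following the study's limits. Kept cells totalled 25795684, 64556621 and 29128981 UMIs in WT_Ctrl, WT_UV and RP_UV. Libraries were integrated and clustered with R 4.3.3, Seurat 5.3.0 and sctransform 0.4.2 (3000 features, 30 dimensions, resolution 0.8), and clusters were split again with scanpy 1.11.5 and leidenalg 0.10.2. This second split used the pooled cells of a cluster from all 3 libraries without integration.

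Each of 160 clusters was named by the marker panel with the highest score, at least 1 on a log2 scale with a pseudocount of 10 CPM and at least 0.5 above the next panel, and 50 clusters that missed these or other limits stayed unnamed. The naming limits were set after the clusters had been seen. No doublet was removed in the main analysis. Scrublet called 1.39%, 0.0191% and 0.0165% of cells, which is too few to have worked in WT_UV and RP_UV.

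Raw UMIs were summed over each class and library and divided by the class total to give CPM, with exact Poisson 95% intervals. Ratios have exact conditional intervals, shares of UMIs exact binomial (Clopper-Pearson) and shares of cells Wilson intervals, computed with scipy 1.17.1. Counting error is the only error that these intervals, and the floors, include. A gene was called where it had 20 UMIs in a pair of libraries with at least 20 cells of the class each, differed by 2-fold or more and had an interval outside 1. A library at 0 was set to 3 UMIs, and for a share at 0 the limit given is 3 counts of the total. No p-value was computed. The ratio step was tested on simulated counts drawn with counting error alone. That simulation leaves out the gathering of UMIs in few cells, so it cannot check the intervals against it.

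The 10 genes and the other lists were chosen with earlier results of these data known. Named genes were those 10, up to 4 listed pathway genes with the highest and up to 4 with the lowest called ratio in each comparison described, and the 3 genes most correlated with each of the 10 on log2(CPM + 10) over pools of at least 20 cells, among genes with 100 UMIs or more. Genes of T cell co-detection, cluster leaders and marker panels were named besides. Alternatives covered class naming, integration, filters, depth, doublets and thresholds. Promoter sequences were from RefSeq (GRCm38.p6). Il10, Il10ra and Il10rb had no promoter entry.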

Additional observations from a re-analysis of the deposited data

Results flagged for a closer look

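Results were set apart here where the same comparison went one way in one cell class and the opposite way in another, with both ratios past 2-fold. With 1 library per group none of these differences was tested. Cd274 in RP_UV over WT_Ctrl was 6.81 (1.72 to 58.9) in monocytes, from 29 and 2 UMIs, and 0.333 (0.132 to 0.882) in endothelial cells, from 13 and 9 UMIs. Cd274 in RP_UV over WT_UV was 2.11 (1.32 to 3.30) in monocytes and 0.365 (0.129 to 0.915) in keratinocytes, where the ratio lay inside 2-fold in 5 of 7 alternatives. The monocyte ratios lay inside 2-fold in thinned cells, and that over WT_UV also with classes from each cell's own markers. Il10ra in WT_UV over WT_Ctrl was 3.37 (1.22 to 13) in Langerhans cells, from 40 and 4 UMIs, and 0.380 (0.136 to 0.988) in type 1 dendritic cells, from 8 and 13 UMIs, a ratio that reversed with classes from own markers and in thinned cells.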

How the results depend on the processing

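The 28 called ratios were recomputed in 177 alternatives, of which 161 kept their direction and stayed within the ratio's own counting interval, 12 left that interval and 4 reversed. In 32 the ratio lay inside the 2-fold limit. Without integration the log2 ratio of Il10ra in monocytes (RP_UV over WT_UV) went from -1.32 to 0.18 and that of Foxp3 in T cells (WT_UV over WT_Ctrl) from -1.20 to 0.21, while that of Il10ra in type 1 dendritic cells (WT_UV over WT_Ctrl) went from -1.40 to 0.13 with classes from own markers and to 2.50 thinned, and the cause was not tested. Besides the losses given in the report, Il10ra in monocytes (RP_UV over WT_Ctrl) went from -1.47 to -0.76 with own markers and -0.14 without integration, and Pdcd1lg2 over all cells from 1.03 to 0.82 under 4000 genes and 0.74 thinned (WT_UV over WT_Ctrl) and from -1.13 to -0.69 as a mean of the cells' CPM (RP_UV over WT_Ctrl). In macrophages the 1 called gene of WT_UV over WT_Ctrl became 0 without integration and 0 in cells thinned to 2000 UMIs, and the 2 of RP_UV over WT_UV and the 2 of RP_UV over WT_Ctrl became 1 each when thinned, where Cd274, Pdcd1lg2 and Il10 kept their directions. A limit of 1.5-fold gave 4 genes in macrophages for each comparison with RP_UV, and 5 and 7 over all cells for WT_UV over WT_Ctrl and RP_UV over WT_UV in place of 2 and 3. It gave 19, 15 and 21 pathway genes in macrophages in place of 12, 7 and 11. The share of Il10 UMIs of WT_UV held by macrophages was 64.4% with classes from each cell's own markers, 69.7% without integration, 83.0% under 4000 genes, 69.0% thinned, 83.5% without the highest 5% of Scrublet scores and 73.4% as a mean of the cells' CPM, against 79.2%. The share of WT_UV T cells with a Foxp3 UMI was 2.77% at 2000 UMIs and 1.68% at 1000, against 6.06%. With a pseudocount of 1 CPM, 1 of the 3 most correlated genes was shared for Cd274, Pdcd1lg2, Il10ra, Il10rb, Foxp3 and Ctla4. No paired analysis was possible because each group has 1 library, and no replicate could be left out. Depth limits the T cells of RP_UV most, with 19 cells.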

Other observations

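Keratinocytes carried few of the 10 genes but had 39, 42 and 43 of the other pathway genes measured. In WT_UV over WT_Ctrl 3 were higher and 2 lower, beside 7.03% of all genes called in either direction: Arg1, the arginine-degrading enzyme (4.38), Icosl (2.61) and Cd200, an inhibitory ligand of myeloid cells (2.41), against Socs3 (0.482) and Tnfaip3, an inhibitor of NF-kB (0.492). In RP_UV over WT_UV 7 were higher and 4 lower, beside 10.2% of all genes, among them the IL-10 family cytokine gene Il24 (68.5, from 1 UMI in WT_UV), Areg (4.25) and Tgfb3 (3.75) on one side, and Ccr4 (0.166), Arg1 (0.244) and the prostaglandin E2 receptor gene Ptger4 (0.364) on the other. In RP_UV over WT_Ctrl 8 were higher and 7 lower, beside 18% of all genes, with Il24 at least 26.0-fold higher than its floor and Ptger4 at 0.261.

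In fibroblasts of RP_UV over WT_Ctrl 4 of 38 were higher and 3 lower, beside 10.1% of all genes called in either direction. Thbs1 was highest (3.79, 3.02 to 4.79), followed by Lrrc32, which anchors latent TGF-β at the cell surface (2.84), Bcl3 (2.72) and Tnfaip3 (2.71). Nt5e, the enzyme that makes adenosine (0.385), Tgfb2 (0.475) and Vsir (0.480) were lower. No test was possible for any of these values.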
